A study of Mus musculus with 8 samples.

Results

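The transcripts described here are those of the Slc25 family, the carriers that move metabolites through the inner membrane of mitochondria. They were taken as every row of the deposited table whose symbol starts with Slc25a and a digit and whose mean over all 8 libraries was at least 0 log2 CPM (CPM, reads of a gene scaled to the total of its library). Of 43 Slc25a rows among 16505 genes, 39 met this limit, and all 39 are among the 13797 genes tested at the same limit. RNA came from epididymal white adipose tissue, the visceral fat attached to the epididymis, of C57BL/6 mice fed a high fat diet for 12 weeks. The 4 wild-type (WT) libraries and the 4 libraries of Mir181 double-knockout mice, called the knockout here, share strain, diet and tissue. The labels name neither the deleted loci nor the age, litter or housing of the mice, and the p-values therefore speak only of the scatter among 8 samples that may share a source. No row of the table names a miR-181 transcript, and the deletion itself was therefore not measured. A change is a log2 fold change, knockout minus WT, ± SE from limma, and a gene is called when its p, adjusted over all tested genes, is under 0.05. Values listed for a group are always its replicates 1 to 4, in that order.

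Fuel oxidation in the mitochondrial matrix depends on these carriers, since the inner membrane lets few solutes pass. Each carrier is a small protein with a repeated pair of membrane helices, and most exchange one solute for another: ADP for ATP, phosphate for hydroxide, citrate for malate, aspartate for glutamate. In fat cells the citrate and dicarboxylate carriers are known for supplying the cytosol with carbon and phosphate exchange for fatty acid and glycerol synthesis, and the carnitine-acylcarnitine carrier for bringing fatty acids in to be oxidised. Uncoupling proteins belong to the same family under other symbols.

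The libraries differed in depth and makeup. Totals ran from 3736881 to 76838584 reads, so that 1 read was worth 0.0130 to 0.268 CPM. Ribosomal RNA genes took 3.07% to 11.5% of reads in WT replicates 1, 3 and 4 and knockout replicate 1, and at most 0.334% in the other 4. Where a pair of differences is given for these classes, the class with more ribosomal RNA comes first; neither has an error, since each class holds 1 library of one of the groups. Epididymis markers (10 genes) took 1.10% to 2.39% of reads in WT replicate 2 and knockout replicates 2 and 4, and at most 0.00448% elsewhere. All 10 adipocyte markers were read in both groups, and took 0.867% to 1.55% of WT reads against 2.23% to 3.07% of knockout reads.

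Carriers rose more often than they fell in the knockout fat, and a few fell steeply. Of the 39 carriers, 15 rose and 4 fell, together 48.7%, where 38.8% of all tested genes were called. The 15 that rose are 38.5% of the carriers against 22.7% of tested genes, and the 4 that fell are 10.3% against 16.1%. In 17 carriers (43.6%) knockout and WT values were fully separate, as was so for 37.4% of tested genes. Among the largest rises without overlap were those of Slc25a23, Slc25a35, Slc25a42, Slc25a33 and Slc25a22. The 4 falls were those of Slc25a13, Slc25a43, Slc25a24 and Slc25a45. Of these, Slc25a43 had a knockout mean of −0.63 log2 CPM and met the level limit only through its WT level, so its place in the count depends on that limit. The median change of the carriers was 0.40, beside 0.18 for all tested genes, which leaves 0.23 relative to them. Within the classes of ribosomal RNA the carrier median was 0.07 and 0.31, and that of all genes 0.04 and 0.08. All 19 called carriers kept their direction in both classes. For all but 3 of them (Slc25a1, Slc25a10 and Slc25a29) this was certain in advance, since their groups do not overlap.

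Marker transcripts of several cell types also differed between the groups, beside a background of 22.7% of tested genes higher and 16.1% lower. Of 10 adipocyte markers 9 rose (median 1.83), and of 10 macrophage markers 9 fell (median −2.39), from 0.695% to 0.816% of reads in WT to 0.131% to 0.186% in knockout. Of 5 mesothelium markers 3 rose (median 1.48; 0.00577% to 0.0148% of WT and 0.0124% to 0.0375% of knockout reads). Of 6 tested red blood cell markers 2 rose (median 2.50; 0.0277% to 0.0466% and 0.0419% to 1.20%). Of 6 tested brown and beige fat markers 1 rose and 2 fell. None of these markers was at 0 throughout a group. The part of any of these shifts in the carriers' changes was not tested, and in bulk tissue fewer cells of a type and less RNA per cell cannot be told apart. Without the 3 libraries rich in epididymis reads, 10 carriers rose and 4 fell. Leaving out WT replicate 1 or knockout replicate 3 also gave 10 rises in place of 15. With each library centred on its median, 12 carriers rose and 5 fell, while among all calls the share of rises went from 58.6% to 46.4%.

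**Figure D1:**
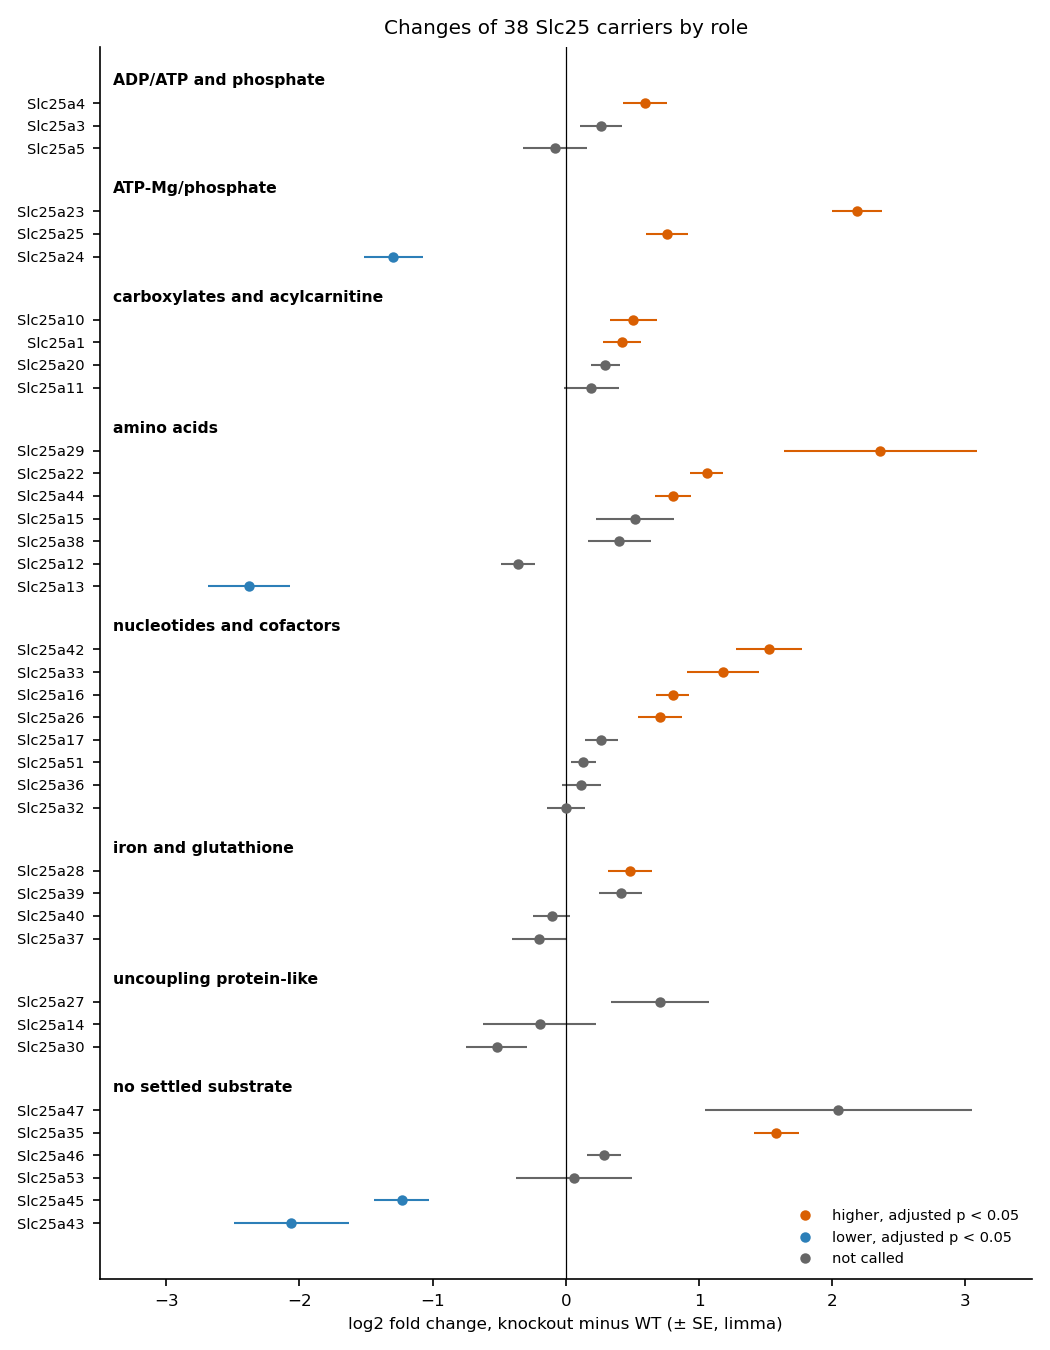
Log2 fold change, knockout minus WT, with its SE for each of 38 Slc25 carriers, grouped by what they carry; orange points are called higher (14), blue lower (4) and grey not called (20). Slc25a13 and Slc25a43 lie furthest left, Slc25a29 and Slc25a23 furthest right, and the ATP-Mg/phosphate and amino acid carriers hold both rises and falls.

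Of the 3 carriers that serve ATP synthesis directly, Slc25a4 rose and the others did not pass. Slc25a4, the ADP/ATP carrier of heart and muscle that fat also expresses, stood at 6.87, 7.18, 6.97 and 7.09 log2 CPM in WT and at 7.26, 7.40, 7.93 and 7.89 in the knockout. Every knockout value lay above every WT value, a change of 0.59 ± 0.17 (limma adjusted p = 0.0206), and 0.29 and 0.56 within the classes. Its call ended without WT replicate 1 (0.54, limma adjusted p = 0.0608), WT replicate 3 (0.0526), knockout replicate 3 (0.0558) or knockout replicate 4 (0.0510). It also ended without the 3 epididymis-rich libraries (0.62, limma adjusted p = 0.0520) and when a term for ribosomal RNA class was added (0.42, limma adjusted p = 0.0772). Slc25a5, the ADP/ATP carrier found in most tissues, stood at 8.38, 8.58, 8.62 and 8.56 log2 CPM in WT and at 7.84, 8.20, 8.73 and 9.05 in the knockout. Its knockout values spread on both sides of WT and the difference was −0.08 ± 0.24 (limma adjusted p = 0.813). Slc25a5 has an annotated pseudogene copy and how reads with several matches were counted is not stated, so its level is uncertain. The phosphate carrier Slc25a3 stood at 7.67, 7.94, 7.69 and 7.98 log2 CPM in WT and at 7.75, 7.94, 8.35 and 8.29 in the knockout, with overlapping groups and a difference of 0.26 ± 0.16 (limma adjusted p = 0.203).

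The ATP-Mg/phosphate carriers, which respond to calcium and load or unload the matrix pool of adenine nucleotides, parted in direction: 2 of 3 rose and 1 fell. Of all tested genes 22.7% rose and 16.1% fell. Slc25a23 stood at 4.35, 4.71, 4.52 and 4.14 log2 CPM in WT and at 6.32, 6.35, 7.04 and 6.76 in the knockout. The groups were far apart, 4.55-fold, a change of 2.19 ± 0.19 (limma adjusted p = 6.75e-05) that was 1.98 and 2.01 within the classes. Its relative Slc25a24 stood at 6.24, 6.22, 6.40 and 6.38 log2 CPM in WT and at 5.69, 5.01, 4.88 and 4.48 in the knockout. Here every knockout library lay below WT, with knockout replicate 1 the closest, and the change was −1.29 ± 0.22 (limma adjusted p = 0.00208), −0.65 and −1.43 within the classes. Slc25a25 stood at 5.20, 5.52, 5.90 and 5.34 log2 CPM in WT and at 6.06, 6.29, 6.42 and 6.23 in the knockout. It rose without overlap by 0.76 ± 0.16 (limma adjusted p = 0.00495). In WT the order of these transcripts per kilobase was Slc25a24 (23.1 CPM per kb, from the mean log2 level), Slc25a25 (13.6) and Slc25a23 (6.41). In the knockout it was the reverse, with Slc25a23 at 29.2, Slc25a25 at 23.1 and Slc25a24 at 9.43 CPM per kb.

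The promoters of Slc25a23 and Slc25a24 are shown because these genes moved in opposite directions. Each runs from 250 bases before to 50 bases after a RefSeq start site in GRCm38.p6, 5′ to 3′ on the gene's strand, with matches to the CCAAT box (CCAAT or ATTGG) and the E-box (CACGTG) in capitals. Slc25a23 (chr17:57059814-57060113, minus strand) holds 1 CCAAT box at −211 from the start, and Slc25a24 (chr3:109122899-109123198, plus strand) holds neither motif in this window.
Slc25a23: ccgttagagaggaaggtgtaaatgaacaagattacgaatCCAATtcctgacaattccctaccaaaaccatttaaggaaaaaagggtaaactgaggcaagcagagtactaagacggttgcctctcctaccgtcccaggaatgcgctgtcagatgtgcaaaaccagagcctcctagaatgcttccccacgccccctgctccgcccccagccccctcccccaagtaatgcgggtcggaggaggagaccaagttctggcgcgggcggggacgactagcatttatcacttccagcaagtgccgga
Slc25a24: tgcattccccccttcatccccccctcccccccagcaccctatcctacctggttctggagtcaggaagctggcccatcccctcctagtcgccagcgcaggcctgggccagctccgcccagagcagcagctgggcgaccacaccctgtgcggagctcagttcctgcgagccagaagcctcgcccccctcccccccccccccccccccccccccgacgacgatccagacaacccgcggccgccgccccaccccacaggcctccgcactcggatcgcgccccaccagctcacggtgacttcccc

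Of the 4 carboxylate and acylcarnitine carriers, 2 rose (50%, beside 22.7% of all tested genes) and the others did not pass. Slc25a1, the citrate carrier that exports citrate for fatty acid synthesis, stood at 7.45, 7.37, 7.61 and 7.46 log2 CPM in WT and at 7.58, 7.82, 8.27 and 7.90 in the knockout. Only knockout replicate 1 fell inside the WT range, and the change was 0.42 ± 0.14 (limma adjusted p = 0.0448). Slc25a10, the dicarboxylate carrier that exchanges malate or succinate for phosphate, stood at 7.40, 7.42, 7.89 and 7.27 log2 CPM in WT and at 8.15, 8.26, 7.997 and 7.60 in the knockout. Its highest WT library (replicate 3) lay above its lowest knockout library (replicate 4), with a change of 0.51 ± 0.18 (limma adjusted p = 0.0493). Both calls are close to the threshold: Slc25a1 lost its call in 14 and Slc25a10 in 15 of 22 alternative settings, and only without WT replicate 3 or knockout replicate 4 (Slc25a10) and without knockout replicate 1 (Slc25a1) did they keep it when 1 library was left out. Their changes ran from 0.24 to 0.57 and from 0.36 to 0.64 over these settings. Within the classes Slc25a1 differed by 0.07 and 0.63 and Slc25a10 by 0.63 and 0.53. Slc25a20, the carnitine-acylcarnitine carrier, stood at 5.54, 5.75, 5.97 and 5.80 log2 CPM in WT and at 6.06, 5.94, 6.07 and 6.18 in the knockout. The groups overlapped and the difference of 0.30 ± 0.11 (limma adjusted p = 0.0602) did not pass, though it did without WT replicate 3 (0.36, limma adjusted p = 0.0363). The oxoglutarate carrier Slc25a11, a part of the malate-aspartate shuttle, stood at 5.82, 6.42, 6.04 and 6.15 log2 CPM in WT and at 5.71, 6.49, 6.38 and 6.62 in the knockout, a difference of 0.19 ± 0.21 (limma adjusted p = 0.484) between overlapping groups.

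Among the 7 amino acid carriers the steepest fall of the family stood beside 3 rises. Called higher were 42.9% and lower 14.3%, beside 22.7% and 16.1% of all tested genes. Slc25a13 encodes citrin, the aspartate/glutamate carrier known from liver, which moves reducing equivalents into mitochondria as part of the malate-aspartate shuttle. It stood at 5.15, 5.27, 5.21 and 5.37 log2 CPM in WT and at 2.71, 3.88, 2.26 and 2.64 in the knockout. WT libraries lay close together (5.25 ± 0.10, SD, n = 4) while all knockout libraries were lower, replicate 2 the least so. The change was −2.38 ± 0.31 (limma adjusted p = 0.000453), 5.20-fold lower, with −2.53 and −2.35 within the classes and −2.76 without the 3 epididymis-rich libraries. Its paralogue Slc25a12, aralar, stood at 4.75, 4.70, 4.76 and 4.90 log2 CPM in WT and at 4.22, 4.44, 4.34 and 4.68 in the knockout. The groups did not overlap, yet its difference of −0.36 ± 0.13 (limma adjusted p = 0.0507) missed the threshold; it passed without knockout replicate 4 (−0.45, limma adjusted p = 0.0220) and with median centring (−0.50, limma adjusted p = 0.0110).

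The promoter of Slc25a13 (chr6:6217124-6217423, minus strand, GRCm38.p6) is given as that of the carrier that fell most, with its CCAAT box at −22 and its E-box at −125 in capitals.
Slc25a13: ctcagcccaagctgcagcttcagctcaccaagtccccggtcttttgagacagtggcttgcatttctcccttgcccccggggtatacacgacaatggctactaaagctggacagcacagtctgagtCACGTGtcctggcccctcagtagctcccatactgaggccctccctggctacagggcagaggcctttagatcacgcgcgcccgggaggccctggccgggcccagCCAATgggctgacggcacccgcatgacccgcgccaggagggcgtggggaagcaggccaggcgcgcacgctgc

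Of the other amino acid carriers 3 rose and none fell. Slc25a22, a carrier that brings glutamate into the matrix, stood at 4.94, 5.17, 5.06 and 4.95 log2 CPM in WT and at 5.90, 6.07, 6.39 and 5.99 in the knockout. It rose 2.08-fold without overlap, a change of 1.06 ± 0.13 (limma adjusted p = 0.000309). Slc25a44, through which branched-chain amino acids enter, stood at 5.25, 5.48, 5.53 and 5.42 log2 CPM in WT and at 6.10, 5.93, 6.46 and 6.41 in the knockout. All 4 knockout libraries were above WT, a change of 0.80 ± 0.14 (limma adjusted p = 0.00201). The ornithine carrier Slc25a15 (0.52 ± 0.29) and the glycine carrier Slc25a38, which serves heme synthesis (0.40 ± 0.24), did not pass; Slc25a38 passed without knockout replicate 1 (0.64, limma adjusted p = 0.0110).

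Slc25a29, a carrier of basic amino acids, had the largest fitted rise of the family and, within each group, was highest in the libraries rich in epididymis reads. Slc25a29 stood at 0.67, 2.63, 0.32 and −0.38 log2 CPM in WT and at 1.62, 3.83, 3.05 and 4.17 in the knockout. WT replicates 1, 3 and 4 held only 6, 8 and 4 of its reads, while WT replicate 2 with 95 reads stood above knockout replicate 1. The fit gave 2.36 ± 0.72 (limma adjusted p = 0.0297), whose size depends on the 0.5 read added to each count. Within the classes the difference was 1.42 and 1.06, and a fit with a term for ribosomal RNA class gave 1.24 (limma adjusted p = 0.0384). Without the 3 epididymis-rich libraries it was 2.13 (limma adjusted p = 0.0247), close to the value over all libraries. The call ended when WT replicate 1, 3 or 4 or knockout replicate 2, 3 or 4 was left out (limma adjusted p from 0.0615 to 0.0843). Slc25a47, picked out after its values were seen, stood at −0.71, 2.99, 0.32 and −0.75 log2 CPM in WT and at 0.56, 4.001, 1.77 and 3.72 in the knockout. Its 3 highest libraries are the 3 with over 1% of epididymis reads, 1 WT and 2 knockout, and its difference of 2.05 ± 1.001 (limma adjusted p = 0.133) did not pass. It passed without WT replicate 2 (2.89, limma adjusted p = 0.0260), and without all 3 such libraries it was 1.54 (limma adjusted p = 0.121).

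**Figure D2:**
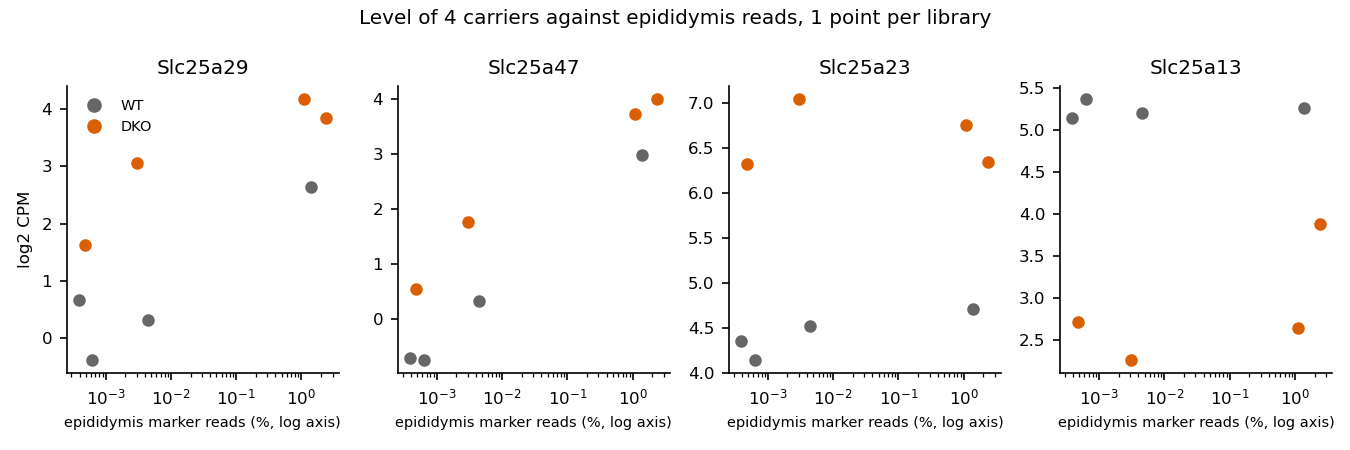
Log2 CPM of 4 carriers (y axes) against the percent of reads from 10 epididymis markers (x axes, logarithmic), 1 point per library, WT grey and knockout orange. Within each group Slc25a29 and Slc25a47 stand highest in the libraries with over 1% of such reads, while Slc25a23 and Slc25a13 separate by group at either end of the x axis.

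Of the 9 carriers of nucleotides and cofactors 5 rose and none fell (55.6% and 0%, beside 22.7% and 16.1% of all tested genes). The median change was 0.71 (0.52 and 0.66 within the classes), beside 0.18 for all tested genes. In all 5 the knockout values lay wholly above WT, and in 37.4% of all tested genes the groups were fully separate in whichever direction. Slc25a42, which brings coenzyme A into the matrix, stood at 3.66, 3.83, 3.60 and 2.82 log2 CPM in WT and at 4.82, 4.79, 5.48 and 4.92 in the knockout. Its change of 1.52 ± 0.25 (limma adjusted p = 0.00149) was 2.88-fold, with WT replicate 4 the lowest library. Slc25a16, a relative of the coenzyme A carrier, rose by 0.80 ± 0.12 (limma adjusted p = 0.00107). The pyrimidine nucleotide carrier Slc25a33 stood at 1.36, 2.62, 2.21 and 1.94 log2 CPM in WT and at 3.03, 3.16, 3.27 and 3.39 in the knockout. It rose by 1.18 ± 0.27 (limma adjusted p = 0.00874) on 10 to 94 reads in the WT libraries, and its class values were 1.19 and 0.66. Slc25a26, the S-adenosylmethionine carrier, rose by 0.71 ± 0.16 (limma adjusted p = 0.00894), a call that ended without the 3 epididymis-rich libraries (0.71, limma adjusted p = 0.0555) and with quantile normalization (0.52, limma adjusted p = 0.0586).

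The remaining 4 of this group did not pass. Slc25a51, the NAD carrier, stood at 6.58, 6.70, 6.84 and 6.75 log2 CPM in WT and at 6.77, 6.83, 6.84 and 6.95 in the knockout, a narrow range with a difference of 0.13 ± 0.09 (limma adjusted p = 0.276). The peroxisomal carrier Slc25a17 differed by 0.27 ± 0.13, the folate and FAD carrier Slc25a32 by 0.0016 ± 0.14, and the second pyrimidine nucleotide carrier Slc25a36 by 0.12 ± 0.15. A p above the threshold does not show that these levels are equal.

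The promoter of Slc25a42 (chr8:70212232-70212531, minus strand, GRCm38.p6) is shown as that of a riser with 5 CCAAT boxes, the most among the 30 carriers with a RefSeq promoter, at −249, −142, −106, −81 and −65 (capitals).
Slc25a42: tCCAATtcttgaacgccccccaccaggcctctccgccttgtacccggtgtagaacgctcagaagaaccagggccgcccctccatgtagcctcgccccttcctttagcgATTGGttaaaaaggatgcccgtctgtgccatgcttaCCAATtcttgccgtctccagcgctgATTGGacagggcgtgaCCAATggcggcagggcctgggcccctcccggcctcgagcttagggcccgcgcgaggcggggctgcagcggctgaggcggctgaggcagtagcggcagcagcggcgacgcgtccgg

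Of the 4 iron and glutathione carriers 1, Slc25a28, rose (25%, beside 22.7% of all tested genes). Slc25a37, mitoferrin-1, the iron importer known from red cell precursors, stood at 5.43, 5.60, 5.40 and 5.72 log2 CPM in WT and at 4.999, 5.06, 5.35 and 5.94 in the knockout, a difference of −0.20 ± 0.20 (limma adjusted p = 0.458). Its highest library, knockout replicate 4, is also the one with the most red blood cell marker reads (1.20%, against 0.407% in knockout replicate 3 and at most 0.0827% elsewhere); their part in its level was not tested. Slc25a28, mitoferrin-2, found in other tissues, stood at 4.72, 5.04, 4.62 and 4.95 log2 CPM in WT and at 5.08, 5.10, 5.69 and 5.38 in the knockout. Its groups came close without overlap and the change of 0.48 ± 0.16 (limma adjusted p = 0.0451) lost its call in 14 of 22 alternative settings, among them leaving out WT replicate 1, 3 or 4 or knockout replicate 3 or 4. The glutathione carrier Slc25a39 differed by 0.41 ± 0.16 (limma adjusted p = 0.0735), and passed without knockout replicate 1 (0.54, limma adjusted p = 0.0140), while its paralogue Slc25a40 differed by −0.11 ± 0.14.

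Carriers without a settled substrate held the other large changes. Slc25a35 stood at 3.35, 3.85, 3.86 and 3.29 log2 CPM in WT and at 4.99, 5.16, 5.21 and 5.31 in the knockout. It rose 2.99-fold, by 1.58 ± 0.17 (limma adjusted p = 0.000179), with 1.49 and 1.38 within the classes. Slc25a43 stood at 1.83, 1.24, 0.99 and 1.66 log2 CPM in WT and at 0.27, −0.63, −1.05 and −1.10 in the knockout. It fell by 2.06 ± 0.43 on the log2 scale (limma adjusted p = 0.00567) on few reads, 13 to 36 per WT library and 4 to 49 per knockout library. Its knockout mean of −0.63 is under the level limit, so it is among the 39 only through its WT level. On the log2(CPM + 1) scale the change was −1.15 (limma adjusted p = 0.00374), and within the classes −1.22 and −2.17. Slc25a45 stood at 5.12, 5.06, 4.86 and 5.13 log2 CPM in WT and at 3.16, 4.05, 4.10 and 3.93 in the knockout. All knockout libraries were lower, replicate 1 the lowest, and the change was −1.23 ± 0.21 (limma adjusted p = 0.00187), −1.87 and −1.04 within the classes. Slc25a46, an outer membrane member tied to mitochondrial shape, differed by 0.29 ± 0.13 and Slc25a53 by 0.06 ± 0.43, neither passing.

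None of the 3 uncoupling protein-like carriers passed. Slc25a30 differed by −0.52 ± 0.23 (limma adjusted p = 0.102) and passed without knockout replicate 2 (−0.70, limma adjusted p = 0.0243). Slc25a27 differed by 0.71 ± 0.37 (limma adjusted p = 0.154) and passed without knockout replicate 1 (1.04, limma adjusted p = 0.0152), with class values of −0.29 and 1.05 that differ in sign. Slc25a14 differed by −0.19 ± 0.42, with knockout replicate 1 (5 reads) far below the rest.

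**Figure D3:**
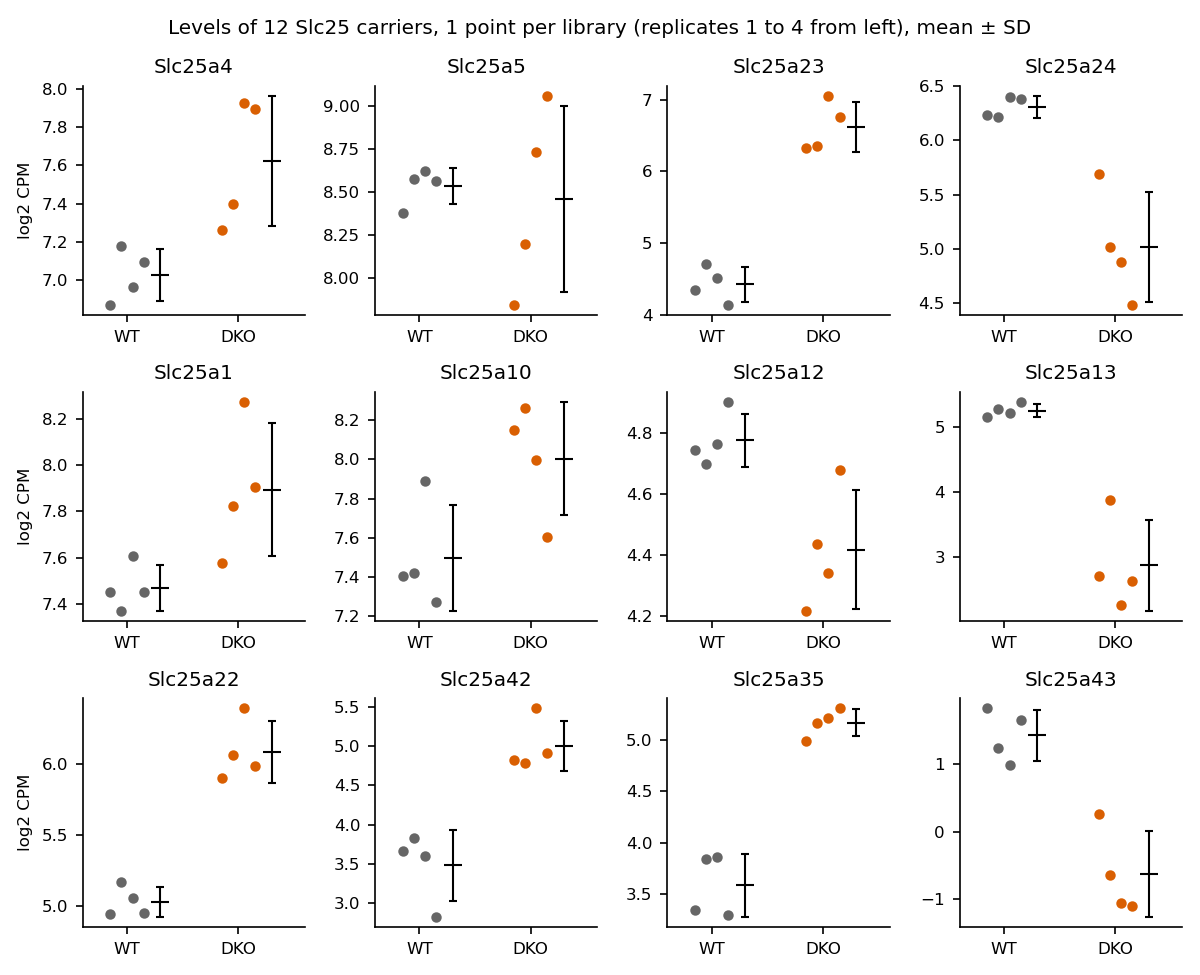
Log2 CPM of 12 carriers in each library (points, replicates 1 to 4 from left; WT grey, knockout orange), with the group mean and SD in black and a separate y axis per panel. Slc25a23, Slc25a22, Slc25a42 and Slc25a35 lie higher and Slc25a24, Slc25a13 and Slc25a43 lower in every knockout library, while the Slc25a5 groups overlap.

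Related carriers were also set against each other within each library, which removes the scaling of the library. The value is the log2 ratio of CPM of 2 genes, compared between groups with a two-sided exact permutation test over all 70 arrangements of the labels, where the smallest possible p is 0.0286. Of 11 pairs, 6 separated the groups completely and reached that p, and none passed after adjustment over the pairs (adjusted p = 0.0524 for these 6, exact permutation test). The Slc25a23 to Slc25a24 ratio was −1.88, −1.51, −1.89 and −2.24 in WT replicates 1 to 4 and 0.63, 1.34, 2.16 and 2.28 in the knockout. It thus changed from negative in every WT library to positive in every knockout library, a shift of 3.48. The aralar to citrin ratio (Slc25a12 to Slc25a13) likewise crossed 0, from −0.47 ± 0.07 in WT to 1.55 ± 0.71 in knockout (SD, n = 4), a shift of 2.02. The Slc25a24 to Slc25a25 ratio moved from 0.82 ± 0.26 in WT to −1.23 ± 0.61 in knockout (SD, n = 4). For this ratio and Slc25a23 to Slc25a24, complete separation was fixed by the values of the single genes given above. In each, 1 gene lay wholly above WT in the knockout and the other wholly below.

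The other 3 separated ratios shifted without changing sign. Slc25a4 to Slc25a5 went from −1.51 ± 0.11 in WT to −0.83 ± 0.24 in knockout (SD, n = 4), so that the Slc25a4 share of the ADP/ATP carrier pair was larger in each knockout library. The Slc25a5 level in this ratio is uncertain, for the pseudogene named above. Slc25a33 to Slc25a36 moved by 1.06 and Slc25a42 to Slc25a16 by 0.72. Overlapping groups were seen for Slc25a37 to Slc25a28 (−0.68, exact permutation p = 0.0571), where knockout replicate 4 reached the lowest WT value. The same held for Slc25a39 to Slc25a40, Slc25a15 to Slc25a29, Slc25a1 to Slc25a10 and Slc25a10 to Slc25a11 (exact permutation p from 0.0857 to 0.771). Within the classes of ribosomal RNA the shift was 2.63 and 3.43 for Slc25a23 to Slc25a24 and 1.94 and 2.13 for aralar to citrin. The direction of the 6 separated ratios was bound to hold in both classes, since their groups do not overlap.

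**Figure D4:**
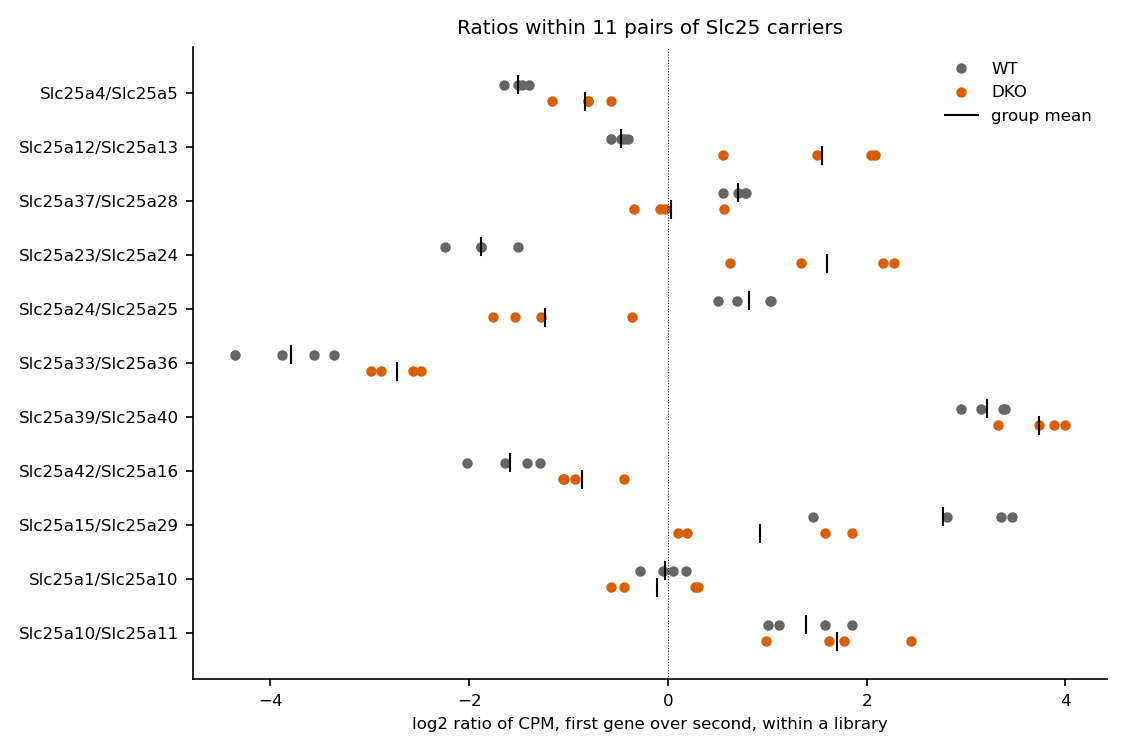
Log2 ratio of CPM within a library for 11 pairs of carriers, WT grey and knockout orange, with a black line at each group mean; 0 means equal CPM. The Slc25a23 to Slc25a24 and Slc25a12 to Slc25a13 ratios lie below 0 in all WT libraries and above 0 in all knockout libraries.

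Family members filed under other symbols moved both ways as well. Called higher were 50% and lower 25%, beside 22.7% and 16.1% of all tested genes. Of the 4 tested, Ucp3, an uncoupling protein of muscle and fat, rose by 1.83 ± 0.20 (limma adjusted p = 0.000197), and Ucp2, the form that macrophages express strongly, changed by −1.70 ± 0.19 (limma adjusted p = 0.000249). The macrophage markers fell as well, with the median given above, and their part in the Ucp2 change was not tested. The outer membrane insertase Mtch2 also rose, by 0.60 ± 0.16 (limma adjusted p = 0.0160). Ucp1 lay under the level limit. Of the machinery that imports and inserts carriers, 1 of 15 rose and 0 fell (6.67% and 0%, beside 22.7% and 16.1% of all tested genes), with a median of 0.11 against 0.18 for all genes. The riser was Tomm40, the pore of the outer membrane (0.55 ± 0.17, limma adjusted p = 0.0268), while the small chaperone Timm13 (0.48 ± 0.17) and Tomm5 (−0.32 ± 0.12) did not pass. Among other mitochondrial transporters 10 of 16 rose and 3 fell (62.5% and 18.8%, beside 22.7% and 16.1% of all tested genes). Tspo, an outer membrane protein, rose by 1.000 ± 0.19, the inner membrane transporter Abcb10 by 0.70 ± 0.11, and the outer membrane channel Vdac2 fell (−0.64 ± 0.12). Both subunits of the pyruvate carrier, named after their values were seen, rose as well, Mpc1 by 0.57 ± 0.17 and Mpc2 by 0.88 ± 0.18.

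The enzymes that work beside these carriers were read from the same fit. Of the citrate-malate shuttle partners 9 of 10 rose and 0 fell (90.0% and 0%, beside 22.7% and 16.1% of all tested genes), among them Pck1 (3.41 ± 0.32), the glyceroneogenic PEP carboxykinase and also one of the adipocyte markers, Pcx (1.46 ± 0.26), pyruvate carboxylase, and Mdh1 (0.91 ± 0.19), cytosolic malate dehydrogenase, with a list median of 0.85. In the carnitine shuttle and fatty acid oxidation list 7 of 11 rose and 1 fell (63.6% and 9.09%, beside 22.7% and 16.1% of all tested genes). Etfa, which passes electrons from the first step of fatty acid oxidation, rose by 0.96 ± 0.17. Cpt2, which works beside Slc25a20 on the inner membrane, rose by 0.79 ± 0.19, and Cpt1a, the outer membrane acyltransferase of liver type, was the one that fell (−0.92 ± 0.21). Of the partners of the aspartate, glutamate, ornithine and branched-chain carriers, 5 of 14 rose and 2 fell (35.7% and 14.3%, beside 22.7% and 16.1% of all tested genes). Got1, the cytosolic aspartate aminotransferase that uses the product of citrin, fell by 0.887 ± 0.15 (limma adjusted p = 0.00163), and the branched-chain ketoacid dehydrogenase subunits Bckdha and Bckdhb rose by 1.52 ± 0.24 and 1.30 ± 0.21. Among heme and iron-sulfur partners 6 of 13 rose and 2 fell (46.2% and 15.4%, beside 22.7% and 16.1% of all tested genes), with Abcb10, which both lists hold, and Iscu (0.66 ± 0.12) up and Alas1, the first enzyme of heme synthesis, down (−0.57 ± 0.10).

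Lists of nuclear genes for other parts of the mitochondrion are set beside a background of 22.7% of tested genes higher and 16.1% lower. Of 38 genes listed under complex I by their symbols alone, Ndufa4 and Ndufa4l2 among them, 20 (52.6%) rose and 0 fell. Their changes ran from 0.17 to 1.12 with a median of 0.57. Of 43 subunits of complexes II to V 19 (44.2%) rose and 0 fell (median 0.59), and of 77 mitochondrial ribosomal proteins 17 (22.1%) rose and 0 fell (median 0.33). The share of ribosomal proteins that rose is thus about that of all genes. The carriers ran from −2.38 to 2.36 around their median of 0.40. The difference in spread between these lists was not tested. The medians within the classes were 0.29 and 0.43 for complex I, 0.23 and 0.53 for complexes II to V, and 0.11 and 0.22 for the ribosomal proteins.

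**Figure D5:**
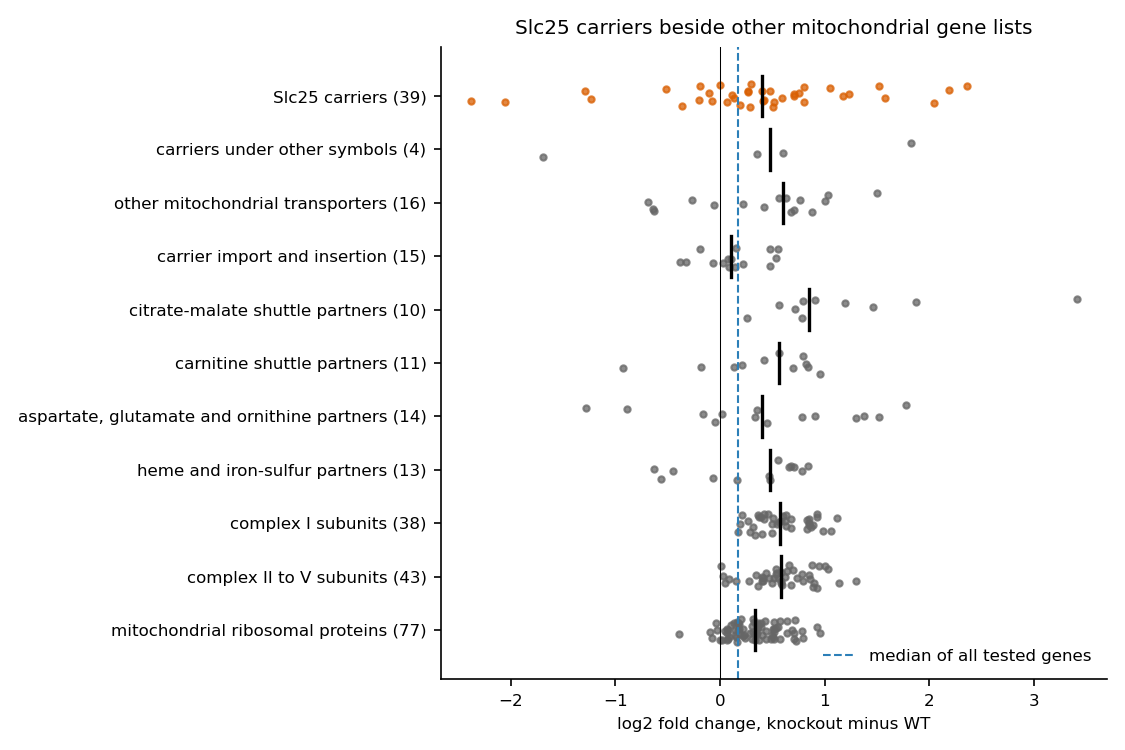
Log2 fold change, knockout minus WT, of each tested gene (points) in 11 lists, with the list median (black line), the median of all tested genes (dashed, 0.18) and the number of genes in parentheses; vertical scatter is arbitrary. The Slc25 carriers (orange) reach from −2.38 to 2.36, and no gene of the complex I or complex II to V list lies below 0.

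Summed over the family, carrier transcripts took 0.200%, 0.229%, 0.235% and 0.218% of reads in WT replicates 1 to 4 and 0.235%, 0.264%, 0.314% and 0.311% in the knockout. Knockout replicate 1 is level with WT replicate 3 and the other knockout libraries are higher. Levels were compared between carriers per kilobase of the principal GENCODE transcript, since longer transcripts collect more reads. By this measure Slc25a5 stood first (299 CPM per kb in WT, from the mean log2 level), a level uncertain for the pseudogene named above, followed by Slc25a3 (140), Slc25a1 (107), Slc25a10 (89.3), Slc25a39 (77.8) and Slc25a4 (67.8). The same 8 carriers, these and Slc25a11 and Slc25a20, held ranks 1 to 8 in the same order in the knockout. Below them the order changed, with Slc25a23 from rank 25 to 10, Slc25a13 from 18 to 35 and Slc25a24 from 11 to 23 of 39.

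At the level limit of 0 log2 CPM, the carriers just inside were Slc25a43 (mean 0.40), Slc25a53 (0.53) and Slc25a47 (1.49). Just outside lay Slc25a34 (−0.13), Slc25a21 (−0.78) and Slc25a48 (−1.67), and further down Slc25a18 (−1.80). These 4 rows held 35, 27, 6 and 4 reads over the WT libraries and 145, 341, 110 and 80 over the knockout libraries, 3 of which are deeper than any WT library. Slc25a21, the oxodicarboxylate carrier, was highest in WT replicate 2 (0.67 log2 CPM, 24 reads) and knockout replicate 2 (1.83, 272 reads), both rich in epididymis reads. In knockout replicate 4, also rich in them, it stood at 0.27 (24 reads). Knockout replicate 3, poor in them, stood at 0.33 (45 reads).

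MicroRNAs pair with messenger RNAs mainly through their seed, and the carriers were searched for the match to that of miR-181, though the labels do not say which miR-181 genes were deleted. The mature miR-181 5p sequences of RefSeq (GRCm38.p6) share 1 seed, bases 2 to 8, in capitals.
miR-181a-5p: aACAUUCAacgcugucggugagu
miR-181b-5p: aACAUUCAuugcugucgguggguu
miR-181c-5p: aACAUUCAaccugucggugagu
miR-181d-5p: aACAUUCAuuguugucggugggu

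Its complement TGAATGT occurred in the longest GENCODE M21 3′ UTR of 6 of 39 carriers (15.4%), beside 18.5% of 12870 tested genes with a protein-coding GENCODE transcript. Any of these genes without an annotated 3′ UTR was counted as holding no match. The 6 carriers were Slc25a12, Slc25a25, Slc25a32, Slc25a36, Slc25a37 and Slc25a53. Of these 6, only Slc25a25 was called, upward by 0.76 ± 0.16 (limma adjusted p = 0.00495), and their median change was 0.03 against 0.42 for the 33 carriers without a match. Over the 12870 genes the medians were 0.13 with and 0.19 without a match, a smaller gap, and the difference among the carriers was not tested. A match of letters is a description and not a functional site. Matches followed by A, the base opposite the first of the microRNA in its best kind of site, lie in Slc25a12, Slc25a36 and Slc25a37, and are shown with the Slc25a25 match, 5′ to 3′ with the match in capitals.
Slc25a12: aaatcaagcagccatgttTGAATGTatcca
Slc25a36: cagctatgctaacctttcTGAATGTacccc
Slc25a37: tcccatgggagtttaactTGAATGTaaaat
Slc25a25: tgcagccacctcattctgTGAATGTgccaa

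In the promoter windows, RefSeq promoters matched 30 of the 39 carriers by symbol. A CCAAT box on either strand was found in 17 of 30 (56.7%) and in 41.1% of all 27025 genes of that table, and an E-box in 6 (20%) and 8.09%. Unlike the carriers, the genes of that table were not limited to those that passed the level limit. The motifs of nuclear respiratory factor 1 (CGCATGCGC), estrogen-related receptors (TNAAGGTCA) and the sterol response element (TCACNCCAC) matched no carrier window, and 1.95%, 1.43% and 1.44% of all genes. A gene was counted once if any of its start sites held a match, and in the 4 promoters printed above no matches overlapped. A match describes letters only, and a window without one says nothing of the factor.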

How the data were processed

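Per the labels' protocols, polyA RNA was made into stranded TruSeq libraries and read as 75-base single ends. Trimmomatic, TopHat2, featureCounts and limma with the mm9 build are named in the submitters' processing notes; their versions and options are not stated there, and without the strand setting reads of overlapping genes on opposite strands cannot be told apart. The authors' deposited table holds log2 CPM. Its values, not the labels, show that 0.5 was added to each count, as voom does. That 1 was added to each total, the rest of the form that voom gives, was assumed. Turned back into reads, 100% of 132040 values were whole to within 0.01.

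The values were fitted with limma 3.58.1 (lmFit, eBayes with trend) in R 4.3.3, group as the only term, over the 13797 genes with a mean of at least 0, with Benjamini-Hochberg adjustment. Pairs were tested by exact permutation and adjusted over 11 pairs. The code was tested on simulated data. Members, roles, pairs and lists were chosen with earlier results of these data known. Named genes are the 6 largest rises and falls among called carriers without overlap and 13 fixed carriers; the falls numbered 4, and 1 of the rises is counted but not otherwise reported here. Slc25a29 and Slc25a47 were picked out after their values were seen, and the promoters were too. Sequences come from RefSeq (GRCm38.p6) and GENCODE M21, matched by symbol; no position of the authors' build is given. Protein sequences were not used here. Alternatives were other pseudocounts, filters, scalings and weights, whole reads with voom, thinned reads, a replicate block, the ribosomal RNA class, and leaving out libraries; a level limit of 1 or −1 was added after the data were seen. Plots were drawn with matplotlib 3.10.9.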

Additional observations from a re-analysis of the deposited data

Results flagged for a closer look

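Slc25a14, an uncoupling protein-like carrier, stood at 0.56 log2 CPM in knockout replicate 1 (5 reads), while the nearest of the other knockout libraries was at 2.16; the gap is 0.876 of the group's range, above Dixon's 95% critical value for 4 samples. Without that library the difference between the groups was 0.23 in place of −0.19. It was the only one of 102 groups of values examined in this way, where chance gives about 1 in 20.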

How the results depend on the processing

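Over 22 alternative settings, 13 of the 19 called carriers stayed called wherever they were fitted (9 higher and the 4 lower), and none of the 19 changed sign. Array weights gave 23 rises; the other settings gave 10 to 18 rises, and leaving out 1 library gave 10 to 18 rises and 4 to 5 falls. The median change ran from 0.24 to 0.47. Depth limits the low carriers: the called carrier with the fewest reads in a library had 4. The replicate block gave 16 rises and 4 falls, with Slc25a28 losing its call and Slc25a39 and Slc25a47 gaining one. Same-numbered libraries correlated in their deviations at 0.36, 0.79, 0.24 and −0.36, and not every library correlated best with its own number. These values cannot tell whether same-numbered samples share more than the number. With reads thinned to the smallest library, 7 pair ratios passed (exact permutation test, adjusted p = 0.0449). They were Slc25a4/Slc25a5 0.67, Slc25a12/Slc25a13 2.12, Slc25a37/Slc25a28 −0.80, Slc25a23/Slc25a24 3.58, Slc25a24/Slc25a25 −2.01, Slc25a33/Slc25a36 1.05 and Slc25a42/Slc25a16 0.65. Of these, only Slc25a37/Slc25a28 had overlapping groups without thinning. The smallest possible p was 0.0286 with or without thinning (exact permutation test), and its adjusted value falls as more pairs reach it. With 1 library left out, the ratios were compared by their size only. A level limit of 1 or −1, chosen after the data were seen, gave 15 and 14 rises and 4 falls.

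Of the 20 carriers not called, 7 changed sign somewhere, always without a call; the cause was not tested. Median centring gave Slc25a32 −0.14, Slc25a36 −0.0262, Slc25a51 −0.0114 and Slc25a53 −0.0807; quantile normalization gave Slc25a32 −0.18 and Slc25a53 −0.38; voom on whole reads gave Slc25a32 −0.15, Slc25a36 −0.0600, Slc25a51 −0.0133 and Slc25a53 −0.00776. A term for ribosomal RNA class gave Slc25a11 −0.11, Slc25a32 −0.0220 and Slc25a53 −0.42; array weights gave Slc25a14 0.0533, Slc25a32 −0.0367 and Slc25a5 0.11; thinned reads gave Slc25a14 0.0973, and leaving out the epididymis-rich libraries gave Slc25a32 −0.14. With 1 library left out, Slc25a14 ran from −0.38 to 0.23, Slc25a32 from −0.0731 to 0.0696, Slc25a5 from −0.28 to 0.13 and Slc25a53 from −0.14 to 0.32.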

Other observations

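In the RefSeq gene order (GRCm38.p6), 2 pairs of carriers neighbour each other with only a small RNA gene between them. Slc25a43, which fell by 2.06 ± 0.43, lies beside Slc25a5, whose difference was −0.08 ± 0.24. Slc25a29 lies beside Slc25a47 with Mir345 between them. Both of the latter were higher in the 3 libraries with over 1% of epididymis reads than in the other libraries of their own group; the part of those reads was not tested.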
